A study of Mus musculus with 2 samples.

Results

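The Ntrk3/Ndnf/Dpt stroma is a minority of the connective tissue cells of the newborn mouse ovary that carries RNA of 3 genes seldom found in the stroma around it. Its 247 barcodes, of 10096 in all, were chosen from the counts themselves: 172 were labelled MLT and 75 DEHP_MLT. Per 10,000 UMIs (unique molecular identifiers, which count captured RNA molecules) a member had to hold at least 40 of Col1a1, Col1a2, Col3a1 and Dcn together, which marks stroma, and at least 3 of Ntrk3, Ndnf and Dpt together. It also had to stay below 2 for Mki67 and Top2a, which mark dividing cells, below 10 for the MHC class II genes Cd74, H2-Aa, H2-Ab1 and H2-Eb1, below 10 for the pericyte gene Rgs5, and below 5 for the smooth muscle genes Myh11, Actg2 and Cnn1. Barcodes with fewer than 5000 UMIs were left out. The barcodes that met every condition other than that on Ntrk3, Ndnf and Dpt are called main stroma below and serve as the comparison, 1426 of them labelled MLT and 1660 labelled DEHP_MLT. Of these, 483 and 444 also held UMIs of the 3 genes, at a sum under the threshold.

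Ovaries came from C57BL pups at postnatal day 3. Mothers of both groups were given melatonin (MLT) every day from late pregnancy until then. Mothers of the DEHP_MLT group were also gavaged each day with DEHP, a phthalate plasticizer, some hours before the melatonin. Those of the MLT group received the solvent DMSO instead of DEHP. Both groups therefore carry melatonin, and the comparison of the libraries is between DEHP and its vehicle in animals given melatonin. Each group is 1 library of the 10x Genomics 3′ assay, so no replicate spread exists and no test between groups was possible. How many pups were pooled, and the doses, are not given in the sources used here. The sample titles and the deposited tables' own names contradict each other: the titles were followed, and if the tables are named correctly, each direction between libraries given below turns around.

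Stromal fibroblasts build the collagen scaffold of the ovary, and in the days after birth some of them take on positions around vessels, nerves and new follicles. Ntrk3 encodes TrkC, the receptor of neurotrophin-3. Ndnf encodes a secreted factor first described in neurons, and Dpt encodes dermatopontin, a small matrix protein that binds decorin and collagen. Lum encodes lumican, a proteoglycan that spaces collagen fibrils, and is read here as a further marker. It took no part in choosing the barcodes, but it was named as a marker of the subtype with earlier results of these data known. Its higher level in members is therefore a description and no independent support.

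The members' summed UMIs came to 1678889 (MLT) and 836205 (DEHP_MLT). Their median depth was 9808 and 9803 UMIs per barcode, against 10502 and 10967.5 in main stroma, and their median mitochondrial share was 3.02% and 3.06%. The whole libraries held 80657690 and 117355739 UMIs, and their lowest barcode totals were 2031 and 6923 UMIs, which is why a common floor was set. The libraries had 4 barcode sequences in common, 1 of them a member. The sum of Ntrk3, Ndnf and Dpt ran from 3.01 to 21.0 per 10,000 UMIs with a median of 4.79 among members labelled MLT, and from 3.03 to 25.1 with a median of 4.33 among those labelled DEHP_MLT. In whole molecules this was a median of 5 UMIs in both, with lowest values of 2 and 3. A member near the threshold thus rests on a handful of molecules. Lum stood at 367 and 445 CPM (UMIs per 1000000 summed UMIs of a class) in the 62 and 32 barcodes just inside the threshold, between 3 and 4, and at 407 and 398 CPM in the 83 and 66 barcodes just outside it, between 2 and 3.

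The subtype took a smaller share of the library labelled DEHP_MLT than of the library labelled MLT. It was 3.94% of the 4367 barcodes with at least 5000 UMIs labelled MLT (exact Clopper-Pearson 95% interval 3.38% to 4.56%) and 1.56% of the 4819 labelled DEHP_MLT (1.23% to 1.95%). On the log2 scale the ratio was -1.34, with an interval of -1.75 to -0.94 that covers counting error only. Within non-cycling stroma, which leaves out the blood, germ and epithelial cells whose numbers also differ, the subtype was 10.8% (9.29% to 12.4%) and 4.32% (3.42% to 5.39%), a log2 ratio of -1.32 (-1.73 to -0.92). For the share of subtype among barcodes with barcodes thinned to 5000 UMIs before the rule, the values were 3.62% and 1.76%, a log2 ratio of -1.04.

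The share also differed when the conditions that exclude other cells were dropped. Among all collagen-rich barcodes, cycling and MHC class II-rich ones included, 262 of 2591 labelled MLT (10.1%, 8.98% to 11.3%) and 90 of 2189 labelled DEHP_MLT (4.11%, 3.32% to 5.03%) met the condition on Ntrk3, Ndnf and Dpt. Of these, 50 labelled MLT and 0 labelled DEHP_MLT were kept out of the subtype by the MHC class II condition. A further 34 and 12 failed as cycling, 11 and 2 on the smooth muscle genes, and 3 and 1 on Rgs5, with some failing more than 1 condition. With no condition on MHC class II genes, the share of subtype among barcodes was 4.97% and 1.56%. Whether the smaller share reflects DEHP, the dissection or the dissociation of these ovaries cannot be told apart with 1 library per group.

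**Figure D1:**
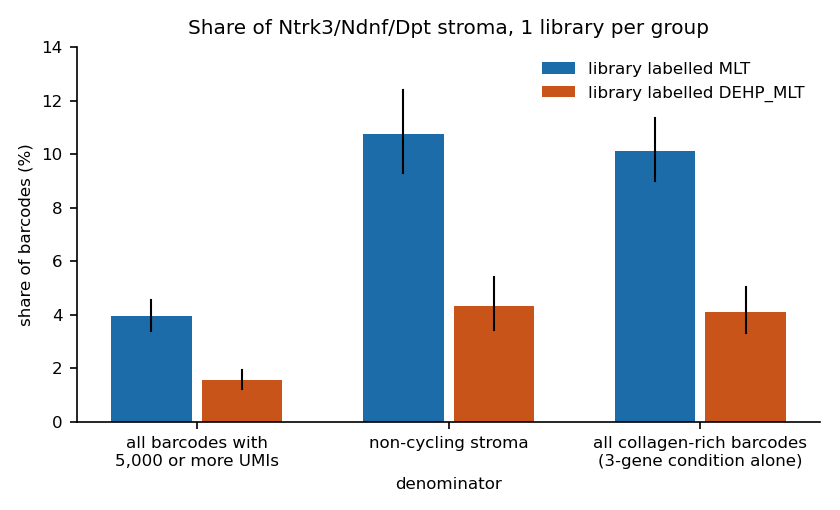
Share of barcodes (%) that belong to the subtype in each library, over 3 denominators; bars start at 0 and black lines are exact 95% intervals, which cover counting error only. The share was lower in the library labelled DEHP_MLT over each denominator: 3.94% and 1.56%, 10.8% and 4.32%, 10.1% and 4.11%.

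Few members carried all 3 of the genes that chose them. In the library labelled MLT, Dpt had a UMI in 108 members, Ntrk3 in 100 and Ndnf in 92. Ntrk3 and Dpt met in 57 of them, Ntrk3 and Ndnf in 50, Ndnf and Dpt in 42, and all 3 genes in 21. In the library labelled DEHP_MLT, Dpt had a UMI in 55 members, Ntrk3 in 50 and Ndnf in 25, and all 3 in 9. A single one of the genes carried 65 of the 172 members and 29 of the 75. As the rule dictates, levels were high: Ntrk3 was 166 CPM in members and 12.5 CPM in main stroma labelled MLT, and 167 and 9.30 CPM in the library labelled DEHP_MLT. Dpt was 272 and 22.1 CPM in the former and 336 and 14.7 CPM in the latter. Ndnf was 175 and 11.6 CPM in the former but only 70.6 and 10.7 CPM in the latter, so the members labelled DEHP_MLT leaned more on Dpt.

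To see whether the 3 genes belong together without using a gene to choose its own barcodes, each was read in stroma barcodes picked by the other two. In the library labelled MLT, Ntrk3 was 91.7 CPM (exact Poisson 95% interval 75.04 to 111) in the 119 barcodes with 3 or more per 10,000 of Ndnf and Dpt, and 17.7 CPM (15.3 to 20.3) in the 1066 with 0 of them. Ndnf was 89.2 CPM (72.2 to 109) in the 110 barcodes chosen by Ntrk3 and Dpt and 20.5 CPM (17.9 to 23.3) in those without. Dpt was 124 CPM (102 to 148) in the 98 barcodes chosen by Ntrk3 and Ndnf and 33.4 CPM (30.3 to 36.7) in those without. Each gene was thus several times higher where the summed level of the other genes met the threshold than where it was 0. Either of those genes alone could meet it, so these readings did not require all 3 genes in a barcode.

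Labelled DEHP_MLT, the same held for Ntrk3, at 108 CPM (82.6 to 139) against 8.84 CPM (7.43 to 10.4), and for Dpt, at 194 CPM (151 to 245) against 18.7 CPM (16.7 to 20.8). It was not seen for Ndnf, which was 18.6 CPM (9.63 to 32.6) in the 60 barcodes chosen by Ntrk3 and Dpt and 10.8 CPM (9.30 to 12.6) in the 1333 without them, with overlapping intervals. Lum, the marker outside the rule, was higher in the chosen barcodes in all 6 of these readings. Since it was named as a marker with earlier results of these data known, this is no independent support. In the Ndnf reading Lum was 673 and 212 CPM labelled MLT and 625 and 152 CPM labelled DEHP_MLT. The readings of a library share many barcodes, so they are not independent of each other.

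Droplets can hold free RNA, so the genes were also read in cells that should lack them. After thinning to 5000 UMIs, Ntrk3 had a UMI in 43.6% of members labelled MLT and 48% of those labelled DEHP_MLT, against 5.26% and 4.16% of main stroma. The rule itself sets that gap, since Ntrk3 helped to choose the members, so it says nothing about free RNA. In barcodes rich in haemoglobin RNA, which should lack it, Ntrk3 had a UMI in 0 of 32 labelled MLT (median 12058 UMIs), which allows a share of up to 9.38%, and in 0.613% of 326 labelled DEHP_MLT (median 8851.5 UMIs). Lum had a UMI in 80.8% and 78.7% of members, 49.9% and 43.3% of main stroma, and 3.13% and 1.23% of the haemoglobin-rich barcodes. Haemoglobin RNA fills much of the UMIs of these barcodes, so their shares can understate free RNA. Barcodes rich in germ cell markers (median 28668 UMIs labelled MLT and 38085 labelled DEHP_MLT) were read too. Thinned, Lum had a UMI in 4.35% and 3.80% of them, Col1a1 in 21.7% and 13.9%, and Ntrk3 in 0% in both libraries. Unthinned, Lum had a UMI in 89.5% and 86.7% of members and in 19.6% and 20.3% of the germ cell barcodes.

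Next, UMIs were summed over the members and over main stroma of each library and compared gene by gene. A gene is called higher or lower here when its CPM differed at least 1.5-fold after adding 1 CPM, with exact Poisson 95% intervals apart, in each of the 2 libraries, and reached 50 CPM in either class of each. Of 3080 genes at that level, 82 were higher in the subtype (2.66%) and 22 lower (0.714%). In single libraries the subtype was lower for 57 of 3574 genes (1.59%) labelled MLT and 71 of 3305 (2.15%) labelled DEHP_MLT. The 17 genes of the rule are not among them. The median of all genes compared was -0.01 on the log2 scale labelled MLT and 0.04 labelled DEHP_MLT. These are descriptions of how the chosen barcodes differ and carry no test, since members and comparison barcodes come from the same libraries.

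**Figure D2:**
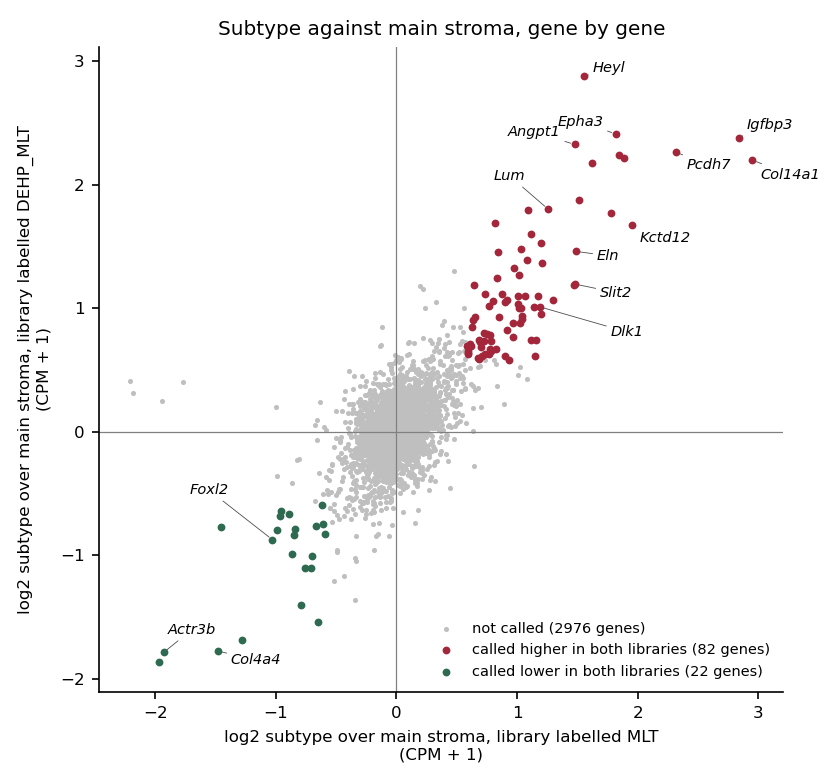
Each point is 1 of 3080 genes, placed by its log2 ratio of subtype over main stroma (CPM + 1) in the library labelled MLT (horizontal) and in the library labelled DEHP_MLT (vertical); red and green points met the criterion in both. The 82 red genes lie in the upper right, led by Igfbp3, Col14a1, Pcdh7 and Heyl, and the 22 green ones in the lower left, with Actr3b and Col4a4 among the farthest.

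Several matrix genes were higher in the subtype. Lum was 564 CPM (529 to 601) in members and 236 CPM (228 to 243) in main stroma labelled MLT, and 630 CPM (578 to 686) and 180 CPM (174 to 186) labelled DEHP_MLT. It was the 1 of 3 small leucine-rich proteoglycans at this level that was called. Its relatives Bgn and Ogn, at log2 ratios of 0.34 and 0.00 labelled MLT and 0.17 and 0.34 labelled DEHP_MLT, were not. Col14a1, a fibril-associated collagen of loose connective tissue, was 89.3 and 10.7 CPM (log2 2.95) labelled MLT and 96.9 and 20.3 CPM (log2 2.20) labelled DEHP_MLT. Col15a1, found at the border of basement membranes, had log2 ratios of 1.62 and 2.17.

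Of the 16 elastic fibre and microfibril genes at this level, 4 were higher and none lower. Eln, which encodes elastin, was 602 CPM (566 to 640) against 214 CPM (207 to 221) labelled MLT and 921 CPM (857 to 988) against 334 CPM (326 to 342) labelled DEHP_MLT, log2 ratios of 1.49 and 1.46. Fbn1, the main fibrillin of microfibrils, had log2 ratios of 0.59 and 0.64, Fbln1 of 0.76 and 0.63, and Ltbp1, which holds latent TGF-beta in the matrix, of 1.16 and 0.74. With the 3 genes at 6 or more, Ltbp1, subtype over main stroma, DEHP_MLT, was -0.60. The median of the whole list was 0.30 and 0.41. Of 20 matricellular and remodelling genes 4 were higher, namely Postn, Tnxb, Spon2 and Adamts1, and 3 lower, namely Thbs1, Tgfbi and Mmp11, so this list had no single direction.

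Genes often used for adventitial fibroblasts, the cells of outer vessel walls, were only in part higher. Gsn (log2 1.17 and 1.10), Cd248 (0.78 and 0.78) and Col15a1 were called among the 9 such genes at this level. Pi16 and Dpp4, which mark the adventitial progenitors of many organs, were all but absent from members: Pi16 was 0.596 and 2.39 CPM, and Dpp4 1.79 CPM labelled MLT with 0 UMIs labelled DEHP_MLT, which allows up to 3.59 CPM. Of 4 tendon and muscle connective tissue genes at this level none was called in either direction.

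Several genes of the insulin-like growth factor family were higher. Of 15 PDGF, FGF and IGF genes 6 were higher and none lower, with a list median of 0.51 labelled MLT and 0.53 labelled DEHP_MLT. Igfbp3, which binds and carries insulin-like growth factors, was 233 CPM (210 to 257) in members and 31.8 CPM (29.0 to 34.7) in main stroma labelled MLT, and 248 CPM (215 to 284) and 46.6 CPM (43.7 to 49.6) labelled DEHP_MLT, log2 ratios of 2.84 and 2.38. The growth factor Igf2 had log2 ratios of 1.14 and 1.01, Igf1 of 0.94 and 0.59, and the clearance receptor Igf2r of 0.77 and 1.02. Pdgfrl and the receptor Fgfr1 were the other two called. Pdgfra, the receptor used to recognise fibroblasts in general, was not called, at 0.28 and -0.10.

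Several guidance and vessel-directed genes were higher as well, 4 of 9 at this level with none lower. Epha3, an ephrin receptor, was 77.4 and 21.3 CPM (log2 1.82) labelled MLT and 121 and 21.9 CPM (log2 2.41) labelled DEHP_MLT. Slit2, a repulsive axon guidance ligand, was 292 and 104 CPM labelled MLT and 227 and 98.5 CPM labelled DEHP_MLT. Nrp1, a semaphorin and VEGF co-receptor, had log2 ratios of 1.09 and 1.80, and the chemokine Cxcl12 of 0.88 and 1.11. Outside that list, Angpt1, the ligand by which mural and stromal cells steady the endothelium, had 1.48 and 2.33, and the protocadherin Pcdh7 2.32 and 2.26. Heyl, a Notch target, had a log2 ratio of 1.56 labelled MLT and was 95.7 and 12.1 CPM (log2 2.88) labelled DEHP_MLT. For Heyl, subtype over main stroma, the DEHP_MLT ratio was 1.55 without the barcodes that carry pericyte markers.

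Of the ligands and receptors related to Ntrk3 itself, 2 of 17 reached the level and neither was called. Ntf3, which encodes the ligand of TrkC, was 0.596 CPM in members labelled MLT and had 0 UMIs in those labelled DEHP_MLT. Ngfr, the low-affinity neurotrophin receptor, was 108 and 107 CPM in members and main stroma labelled MLT and 124 and 91.4 CPM labelled DEHP_MLT. Ntrk2, which encodes TrkB, stayed under 50 CPM but was 25.6 CPM in members against 7.91 CPM in main stroma labelled MLT, and 33.5 against 5.95 CPM labelled DEHP_MLT.

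The gonadal character of the members was mixed. Of 16 genes of gonadal stroma and steroidogenic precursors 4 were higher and 1 lower, with list medians of 0.06 and -0.18. Dlk1, a non-canonical Notch ligand, was 1054 CPM in members and 462 CPM in main stroma labelled MLT, and 1657 and 821 CPM labelled DEHP_MLT. Wnt5a, a secreted Wnt ligand, had log2 ratios of 0.68 and 0.60. The stromal transcription factor genes Nr2f2, Wt1 and Gata6 were not called, at -0.14, 0.10 and 0.41 labelled MLT and -0.27, -0.25 and -0.02 labelled DEHP_MLT. Star, Cyp17a1 and Lhcgr, which mark steroid-making cells, were at most 3.59 CPM in members of either library.

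Among 4 hormone and xenobiotic receptor genes at this level, 2 were higher and none lower. Esr1, the oestrogen receptor alpha gene, was 93.5 CPM in members and 54.4 CPM in main stroma labelled MLT, and 63.4 and 39.4 CPM labelled DEHP_MLT, log2 ratios of 0.77 and 0.67. The receptor genes tied to phthalates and to other xenobiotics were low: Ppara was 5.96 and 3.59 CPM in members, Ahr 7.15 and 3.59 CPM, and Pparg 1.79 CPM labelled MLT with 0 UMIs labelled DEHP_MLT. Of 5 Wnt genes 2 were higher, Wnt5a and Sfrp1, a secreted Wnt antagonist at 1351 and 548 CPM labelled MLT and 1229 and 587 CPM labelled DEHP_MLT. Rbp4, which carries retinol, had log2 ratios of 1.51 and 1.88, and Gdf10, a BMP family ligand, of 1.07 and 1.10.

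The genes that were lower included Foxl2, the transcription factor that holds ovarian supporting cell identity, and several others. Sox10, Erbb3 and Foxd3, which mark Schwann cells and their precursors, had 0 UMIs in members of both libraries. Foxl2 was 97.1 CPM against 199 CPM labelled MLT and 87.3 against 161 CPM labelled DEHP_MLT, log2 ratios of -1.03 and -0.87. Col4a4, a basement membrane collagen chain, had -1.48 and -1.78, and was the only 1 of 10 basement membrane genes called. Actr3b, Srpx2, Hoxd9 and Frem1 had ratios between -1.93 and -0.76. Of 19 antioxidant and metallothionein genes, 21 genes of folding in the endoplasmic reticulum and 8 proliferation genes, none was called in either direction.

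Summed levels of vessel-wall markers were above those of main stroma in members of both libraries. No pericyte or endothelial marker reached the level set for single genes, which is 50 CPM in each library. Of 2 smooth muscle markers that did, none was called. In members of a single library, 4 of the 8 pericyte markers did reach 50 CPM. Ndufa4l2 was 23.8 CPM in members and 5.12 CPM in main stroma labelled MLT, and 102 and 11.0 CPM labelled DEHP_MLT. The 8 pericyte markers summed to 185 CPM in members and 101 CPM in main stroma labelled MLT, and to 354 and 103 CPM labelled DEHP_MLT, with Higd1b at 0 UMIs in the latter members. At least 3 per 10,000 of these markers were found in 35 of the 172 members labelled MLT (20.3%, 14.6% to 27.1%) and 27 of the 75 labelled DEHP_MLT (36%, 25.2% to 47.9%), and in 5.96% of main stroma in both libraries. The 8 endothelial markers summed to 79.2 and 45.4 CPM labelled MLT and 75.3 and 35.2 CPM labelled DEHP_MLT, with Pecam1 under 5 CPM in members and Tie1 and Plvap at 0 UMIs labelled DEHP_MLT. Smooth muscle markers summed to 849 and 707 CPM labelled MLT and 1368 and 920 CPM labelled DEHP_MLT. Without the barcodes that carried pericyte markers, 81 genes were higher and 17 lower, of which 62 and 15 had been called before.

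Sums of germ cell, granulosa and leukocyte markers were not above those of main stroma in both libraries. The erythroid sum was lower in members labelled MLT, at 477 against 1925 CPM. It was higher in members labelled DEHP_MLT, at 20752 against 16666 CPM. Germ cell markers summed to 229 and 227 CPM in members and main stroma labelled MLT and 170 and 177 CPM labelled DEHP_MLT. Granulosa markers summed to 597 and 799 CPM labelled MLT and 768 and 879 CPM labelled DEHP_MLT. The 11 leukocyte markers summed to 51.2 and 49.2 CPM labelled MLT and 108 and 360 CPM labelled DEHP_MLT, with Ptprc, C1qa, C1qc and Csf1r at 0 UMIs in the latter members. Without the barcodes holding 3 or more per 10,000 of germ, endothelial or leukocyte markers, 82 genes were higher and 19 lower, and 70 and 17 of them had been called before.

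Stroma outside the threshold already leaned towards the pattern. All non-cycling stroma was split by the summed level of Ntrk3, Ndnf and Dpt into barcodes at 0 (943 labelled MLT and 1216 labelled DEHP_MLT), above 0 but under 3 (483 and 444), from 3 to under 6 (108 and 53) and 6 or more (64 and 22). The 35 genes followed over these steps were taken from the results above after their values were seen. Lum was 203, 295, 471 and 724 CPM over the 4 steps labelled MLT and 147, 255, 542 and 885 CPM labelled DEHP_MLT. Col14a1 was 9.32, 13.2, 55.6 and 147 CPM labelled MLT and 17.6, 26.6, 69.2 and 177 CPM labelled DEHP_MLT. Col4a4 went the other way, at 218, 141, 79.2 and 48.6 CPM labelled MLT and 135, 88.4, 45.1 and 4.66 CPM labelled DEHP_MLT. Foxl2 did so too, at 208, 183, 99.9 and 92.3 CPM labelled MLT and 171, 136, 101 and 46.6 CPM labelled DEHP_MLT. Tcf21 also fell, at 226, 185, 160 and 133 CPM labelled MLT and 404, 341, 211 and 158 CPM labelled DEHP_MLT. Gata4 was 108, 97.3, 110 and 63.1 CPM labelled MLT and 98.9, 101, 59.5 and 41.9 CPM labelled DEHP_MLT.

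Not every gene followed the steps to the end. Igfbp3 was 18.1, 56.6, 220 and 256 CPM labelled MLT, but 30.3, 84.6, 291 and 121 CPM labelled DEHP_MLT, where the highest step held 22 barcodes. Dlk1 likewise stood at 1709 and then 1509 CPM in the last steps labelled DEHP_MLT. Prlr, the prolactin receptor gene, was 11.0, 26.8, 70.7 and 204 CPM labelled MLT and 5.97, 21.2, 33.8 and 69.9 CPM labelled DEHP_MLT. Smoc2, a matricellular gene, was 2.81, 9.53, 19.8 and 66.4 CPM labelled MLT and 4.25, 17.4, 98.2 and 228 CPM labelled DEHP_MLT. Pdgfra showed no such order, at 191, 231, 269 and 217 CPM labelled MLT and 116, 150, 121 and 107 CPM labelled DEHP_MLT.

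**Figure D3:**
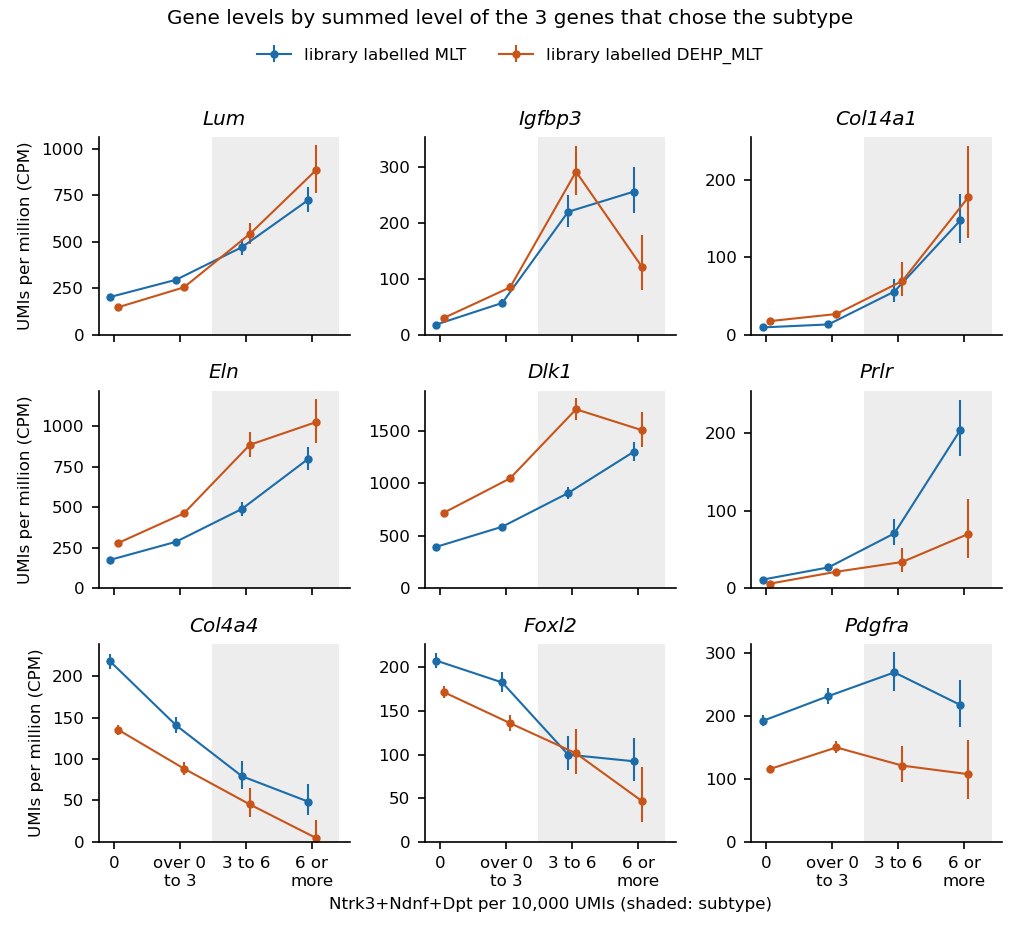
Level in CPM (vertical axes from 0) of 9 genes in non-cycling stroma barcodes grouped by their summed level of Ntrk3, Ndnf and Dpt; points are class sums in each library, lines are exact Poisson 95% intervals, and grey marks the subtype. Lum, Col14a1 and Eln climb over the 4 steps in both libraries, Col4a4 and Foxl2 descend, and Igfbp3 labelled DEHP_MLT drops to 121 CPM in the last step.

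The members were not uniform, and the gene that led in a barcode went with different companions. By most UMIs, Dpt led in 71 members labelled MLT and 42 labelled DEHP_MLT, Ndnf in 48 and 11, and Ntrk3 in 37 and 18, with 16 and 4 tied. The genes named in this split were picked after their values were seen. Ndnf-led members had more Igfbp3 than Dpt-led ones, at 383 CPM (328 to 444) labelled MLT and 591 CPM (469 to 735) labelled DEHP_MLT, against 61.1 CPM (44.4 to 82.1) and 130 CPM (99.9 to 166). Ntrk3-led members lay close to the Ndnf-led ones labelled MLT, at 368 CPM, and close to the Dpt-led ones labelled DEHP_MLT, at 179 CPM. Gata6 was 374 and 285 CPM in Ndnf-led members against 165 and 192 CPM in Dpt-led ones, though the intervals overlap labelled DEHP_MLT. Gata6 encodes a transcription factor of gonadal somatic cells.

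Dpt-led members carried genes that were scarce where Ndnf led. Ebf1, a transcription factor gene of adipose and mural lineages, was 76.4 CPM (57.6 to 99.5) in Dpt-led and 8.80 CPM (2.40 to 22.5) in Ndnf-led members labelled MLT, and 120 CPM (90.9 to 155) against 0 UMIs labelled DEHP_MLT. Heyl was 80.6 and 17.6 CPM labelled MLT and 157 CPM against 0 UMIs labelled DEHP_MLT. Cxcl12 was 436 and 178 CPM labelled MLT and 405 and 131 CPM labelled DEHP_MLT. The pericyte markers also differed between these members: they summed to 251 CPM in Dpt-led, 110 in Ndnf-led and 144 in Ntrk3-led members labelled MLT, and to 390, 146 and 489 CPM labelled DEHP_MLT. Their part in the split was not tested.

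Lum and Sfrp1 were higher in Ntrk3-led than in Dpt-led members. Lum was 790 CPM (699 to 889) there labelled MLT, against 446 and 489 CPM where Ndnf or Dpt led, and 960 CPM (817 to 1120) labelled DEHP_MLT, against 569 and 499.6 CPM. Sfrp1 was 1823 CPM (1684 to 1971) labelled MLT and 1926 CPM (1721 to 2148) labelled DEHP_MLT, above the 1060 and 927 CPM of Dpt-led members. Eln labelled MLT was 629 CPM (548 to 718), 528 CPM (463 to 599) and 600.2 CPM (545 to 660) in Ntrk3-, Ndnf- and Dpt-led members, with overlapping intervals.

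**Figure D4:**
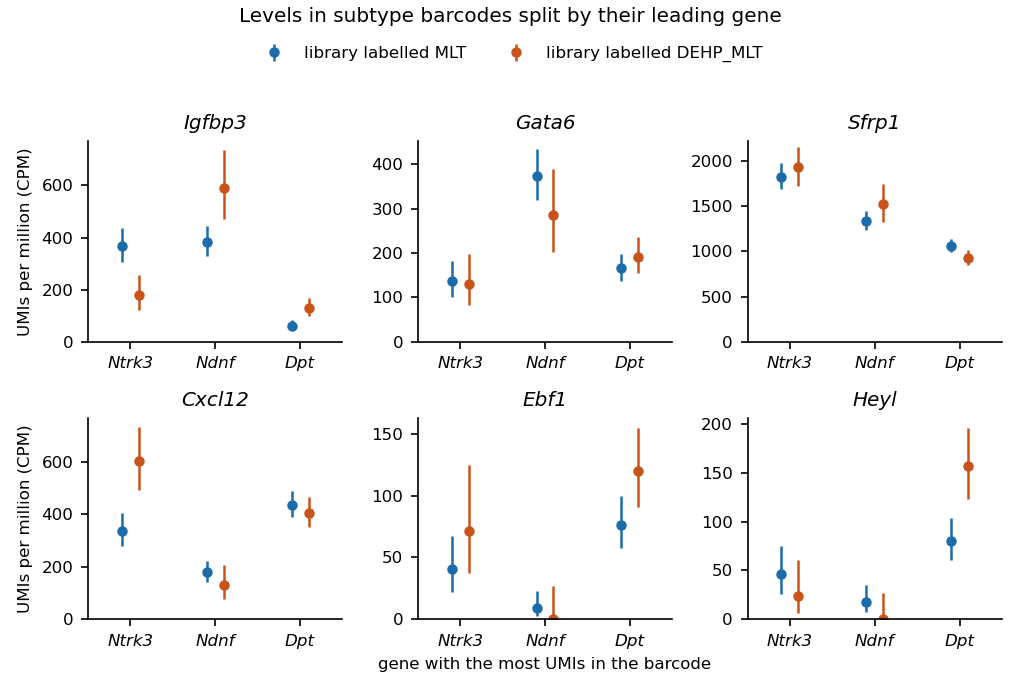
Level in CPM (vertical axes from 0) of 6 genes in members grouped by which of Ntrk3, Ndnf or Dpt had the most UMIs; points are sums over the members of a library and lines exact Poisson 95% intervals. Gata6 was highest in Ndnf-led members in both libraries, though its DEHP_MLT intervals overlap, while Cxcl12, Ebf1 and Heyl were lowest where Ndnf led in both libraries.

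Genes that went with the 3 genes in a library were then read in the other. The 20 genes with the largest ratio of subtype over main stroma labelled MLT, among them Col14a1, Igfbp3, Prlr, Pcdh7 and Kctd12, were read in the library labelled DEHP_MLT, which had no part in choosing them. All 20 were higher in members there and 11 met the criterion in that library, where 187 of 3305 genes (5.66%) did. Higher means any log2 ratio above 0 in this paragraph. Iigp1 and Svep1, at 0.02 and 0.03, were nearly level with main stroma, and the median of all genes compared was 0.04 there. Thinned to 5000 UMIs, members labelled DEHP_MLT held a median of 8 UMIs of these genes per barcode and main stroma 1, and 5.42% of main stroma reached the members' median. In the other direction, 20 genes chosen labelled DEHP_MLT were all higher labelled MLT, 10 of them by the criterion, which 135 of 3574 genes (3.78%) met there. Members held a median of 5.5 UMIs of them and main stroma 1, with 5.12% of main stroma at or above the members' median.

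Between the libraries, members differed in interferon-induced, immediate-early and blood-borne transcripts, and main stroma shared much of this. With the same fold, interval and level criterion, 130 of 3651 genes (3.56%) were higher labelled DEHP_MLT within the subtype and 290 (7.94%) lower. In main stroma, with many more UMIs, 59 of 3414 (1.73%) were higher and 232 (6.8%) lower, 291 in either direction (8.52%) against 420 (11.5%) in the subtype. The medians of all genes were -0.07 in the subtype and -0.10 in main stroma. When the subtype's ratios were centred on their median, 181 genes were higher and 204 lower, so the balance of directions depends on the scaling. With members thinned to 5000 UMIs, 91 were higher and 148 lower.

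Immediate-early genes, which cells switch on soon after a stimulus, were among the higher ones labelled DEHP_MLT, in members as in main stroma. Of 21 immediate-early and heat shock genes 7 were higher and none lower, with a list median of 0.35 in members and 0.34 in main stroma. Klf6 was 73.9 CPM in members labelled MLT and 289 CPM in members labelled DEHP_MLT, log2 ratios of 1.96 in members and 1.47 in main stroma. Klf2 had 1.63 and 1.59, and Dusp1 1.63 and 1.81. Id1, a target of BMP signalling, was 69.1 and 283 CPM in members, with log2 ratios of 2.02 and 2.30. Fos and Jun were not called, at -0.01 and 0.02 in members.

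Some of the higher genes went with markers of other cells or with single barcodes. Haemoglobin RNA and other erythroid markers summed to 477 CPM in members labelled MLT and 20752 CPM in members labelled DEHP_MLT, and to 1925 and 16666 CPM in main stroma. The libraries held 32 and 326 haemoglobin-rich barcodes, and their part in these levels was not tested. Alas2, the haem synthesis enzyme of red cells, had 0 of 1678889 UMIs in members labelled MLT and 87.3 CPM in those labelled DEHP_MLT, at least 48.9-fold higher over a floor of 3 counts, and 35 of its 73 UMIs came from 1 member. Bpgm, a red cell enzyme gene, had a log2 ratio of 1.43, with 31 of 83 UMIs in 1 member labelled DEHP_MLT, and of 0.83 without that member. Ndufa4l2, itself on the list of pericyte markers, was 23.8 and 102 CPM (log2 2.05), and -0.17 without the barcodes carrying those markers.

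Part of the interferon-induced and MHC class I genes were lower in members labelled DEHP_MLT. Of 17 interferon-induced and MHC class I genes at this level 9 were lower, 1 was higher, Ifitm3 at 0.81, and the list median was -0.76 in members and -0.12 in main stroma. H2-D1, an MHC class I heavy chain gene, was 77.4 CPM in members labelled MLT and 5.98 CPM in those labelled DEHP_MLT (log2 -3.49, main stroma -2.40), and H2-K1 89.3 and 10.8 CPM (-2.94, main stroma -1.97). Reads of these near-identical class I genes, and of the Gbp genes, may be split between copies, so their levels are uncertain. Psmb8, a subunit of the immunoproteasome, was 59.6 and 5.98 CPM (-3.12, main stroma -1.69), and Gbp2, an interferon-induced GTPase gene, 79.8 and 22.7 CPM (-1.77, main stroma -1.53).

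Iigp1, an interferon-induced GTPase gene, had the lowest library ratio in members relative to main stroma among the genes named for such a gap. It was 232 CPM (210 to 257) in members labelled MLT and 41.9 CPM (29.2 to 58.2) in those labelled DEHP_MLT, a log2 ratio of -2.44, while main stroma had 44.9 and 41.3 CPM and a ratio of -0.12. Labelled MLT, its UMIs came from 49 of 172 members, with 47 of 390 in a single one. Its level went with MHC class II transcripts, whose part was not tested. Among members labelled MLT, the 112 with a class II UMI had 313 CPM of Iigp1 (281 to 348) and the 60 members with 0 class II UMIs had 83.1 CPM (61.5 to 110), against 25.5 CPM (21.4 to 30.3) in main stroma with 0 class II UMIs. In the library labelled DEHP_MLT 72 of 75 members had 0 class II UMIs, and Iigp1 was 37.1 CPM (24.8 to 53.2) in them. Over members with 0 class II UMIs in both libraries the log2 ratio was -1.14 for Iigp1, DEHP_MLT over MLT in subtype, and -2.50 for Psmb8, DEHP_MLT over MLT in subtype. Other genes of the list went the other way in those members, with Ifitm1 at 293 CPM labelled MLT and 421 CPM labelled DEHP_MLT, Gbp3 at 11.9 and 42.2 CPM, Irf7 at 10.2 and 28.1 CPM and Isg15 at 11.9 and 25.6 CPM. For Irf7 and Isg15 the intervals overlapped, on 6 and 7 UMIs labelled MLT. Main stroma with 0 class II UMIs moved the same way for these genes. Ifitm1 was 264 and 349 CPM there, Gbp3 10.8 and 23.2 CPM, Irf7 8.13 and 25.8 CPM and Isg15 6.97 and 29.4 CPM. The whole list summed to 3081 and 3252 CPM in the members with 0 class II UMIs.

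A few other genes differed between libraries in members and hardly, or the other way, in main stroma. The interval criterion was not applied to this difference of ratios, so the gaps are descriptive. Rspo1, a secreted Wnt enhancer, was 50.6 CPM in members and 18.1 CPM in main stroma labelled MLT, and 19.1 and 21.5 CPM labelled DEHP_MLT, library ratios of -1.36 and 0.24. Svep1, a matrix protein gene, was 61.9 and 18.99 CPM labelled MLT and 20.3 and 19.9 CPM labelled DEHP_MLT, ratios of -1.56 and 0.07. In the other direction, Tmem100 had ratios of 1.31 in members and -1.07 in main stroma, Nupr1 1.27 and -0.16, Heyl 0.92 and -0.40, and Ebf1 0.89 and -0.75. Without the barcodes carrying pericyte markers, the ratios in members were 0.48 for Tmem100, 0.10 for Heyl and -0.08 for Ebf1, whereas that of Nupr1 was no smaller than with them. With collagens and Dcn at 80 or more, the ratio was -0.40 for Tmem100 and -0.14 for Ebf1. Smoc2 was 36.9 CPM in members labelled MLT and 132 CPM in those labelled DEHP_MLT (1.81, main stroma 0.57), and had 2.21 without the barcodes carrying pericyte markers.

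Of 19 gonadal stroma genes at this level, 7 were lower in members labelled DEHP_MLT and 1 higher, and main stroma is given beside them. Pdgfra was 250 and 117 CPM in members (log2 -1.08, main stroma -0.70), and the Hedgehog receptor and target gene Ptch1 84.6 and 32.3 CPM (-1.36, main stroma -1.32). Gata4 had -0.75 in members and -0.07 in main stroma, and Igfbp5 -0.79 and -0.06. Dlk1 was the one that was higher, with 0.65 in members and 0.83 in main stroma. Kitl, which encodes the ligand of the Kit receptor on oocytes, was 67.9 and 23.9 CPM in members (-1.47, main stroma -0.75). Of 22 antioxidant and metallothionein genes 3 were higher, Mt1, Sod3 and Gpx1, and 1 lower, Txnrd1, and of 4 hormone and xenobiotic receptor genes none was called.

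**Figure D5:**
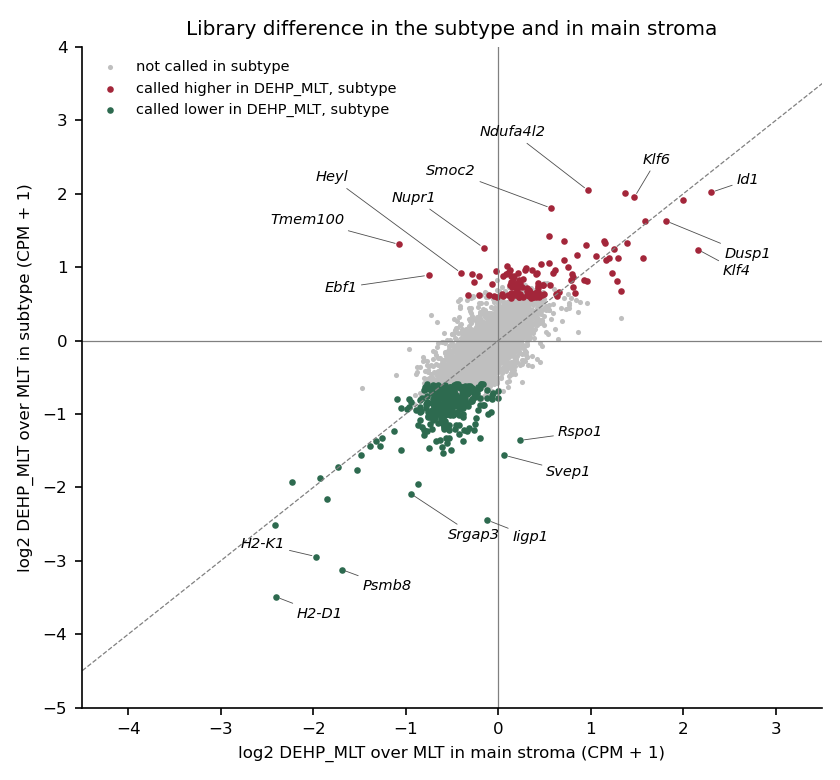
Each point is a gene, placed by its log2 ratio of DEHP_MLT over MLT (CPM + 1) in main stroma (horizontal) and in the subtype (vertical); the dashed line marks equal ratios, red and green genes met the criterion in the subtype, and haemoglobin genes and Alas2 are left out. Id1, Klf6 and Dusp1 lie near the line, whereas Iigp1, Svep1 and Rspo1 lie below it and Tmem100, Ebf1 and Heyl above it.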

How the data were processed

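Raw UMI counts per gene and barcode, in 1 table per library, were deposited by the authors, with no normalization. Per the submitters' processing notes, Cell Ranger and Seurat 4.2.0 were used with genome build mm9. The build of the annotation at hand differs, so no coordinates or sequences are given. The 21018 genes in both tables were analysed with pandas 2.3.3, numpy 2.4.6 and scipy 1.17.1 under Python 3.11.15, and drawn with matplotlib 3.10.9.

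Members were chosen by the stated rule, per 10,000 UMIs of the barcode total, and members and gene lists were chosen with earlier results of these data known. Doublets were not removed. The doublet filter planned, on 5 marker lists, left 11 and 0 members and was replaced by filters on fewer lists. UMIs were summed per class and library and divided by the class total. Ratios are log2 after adding 1 CPM, which understates changes of low genes. Intervals are exact Poisson for levels and Clopper-Pearson for shares, at 95%, and cover counting error only. Each group is 1 library, so no test was run. Thinning drew 5000 UMIs per barcode with seed 1. Calling was tested on simulated data. Named genes were the 20 highest and 12 lowest of the subtype comparison, the 12 highest and 12 lowest of the library comparison, the 5 highest and 5 lowest gaps between subtype and main stroma, and up to 4 members of each list, together with the rule genes and the markers of other cells. Prlr, and list members named beyond those, were chosen after their values were seen. Some genes are not reported here. Alternatives changed the depth floor, the thresholds on the 3 genes and on collagens, the pseudocount, the level filter, the scaling and the cells removed.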

Additional observations from a re-analysis of the deposited data

How the results depend on the processing

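The lower share labelled DEHP_MLT kept its direction under every alternative run, with log2 ratios from -1.68 (3 genes at 6 or more) to -0.97 (at 2 or more). Counts of genes moved with the threshold and the level filter. With the 3 genes at 2 or more, 53 genes were higher and 12 lower in the subtype. At 6 or more, 41 were lower in the subtype and 131 lower labelled DEHP_MLT. A level filter of 20 CPM gave 171 higher and 42 lower in the subtype, and no filter 256 and 48, with 203 higher labelled DEHP_MLT. Thinned to 5000 UMIs, 148 were lower labelled DEHP_MLT.

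Of 3445 values of single genes under the alternatives, 3097 lay within the counting interval of the value given, 331 moved and 17 changed sign. Those given here are log2 values of the subtype over main stroma labelled DEHP_MLT unless a library ratio is named. With the 3 genes at 6 or more, Bpgm was -0.50, Ltbp1 -0.60, Hspa1a 0.0388 and the library ratio of Dhrs3 -0.10. With collagens and Dcn at 80 or more, Gadd45g was -0.63, S100a9 0.0382, and the library ratios of Gadd45g, Ebf1 and Tmem100 were -0.18, -0.14 and -0.40. Against main stroma with 0 UMIs of the 3 genes S100a8 was 0.0832. Filters chosen after the data were seen turned the rest. Without barcodes carrying pericyte markers Col4a1 was -0.10 and Col4a2 -0.11, and the library ratios of Col4a1, Ebf1 and Ndufa4l2 were -0.31, -0.0814 and -0.17. Without germ, endothelial or leukocyte markers S100a8 was 0.25. The cause of these changes was not tested.

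No paired analysis was possible because each group is 1 library. Depth limits the values of the members labelled DEHP_MLT most, since they held 836205 UMIs in all.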

Other observations

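Genes called higher in the subtype in both libraries included several that belong to none of the lists used and lie outside the naming rule, so those given here were chosen after their values were seen. Meg3 and Rian, noncoding RNAs of the imprinted locus that also holds Dlk1, were 3112 and 261 CPM in members and 1591 and 151 CPM in main stroma labelled MLT, and 3689 and 261 CPM against 2160 and 165 CPM labelled DEHP_MLT. Mest and Peg3, which are imprinted as well, had log2 ratios of 0.74 and 0.59 labelled MLT and 1.12 and 0.70 labelled DEHP_MLT. Peg10, also imprinted, was lower, at 5.36 CPM in members and 33.4 CPM in main stroma labelled MLT and at 3.59 and 15.5 CPM labelled DEHP_MLT, too low to enter the counts.

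The homeobox genes Meis1 and Meis2 had log2 ratios of subtype over main stroma of 0.61 and 1.04 labelled MLT and 0.70 and 0.94 labelled DEHP_MLT. Both Ednra and Agtr2 were called higher: Ednra, an endothelin receptor gene, was 141 and 78.3 CPM labelled MLT and 153 and 63.9 CPM labelled DEHP_MLT, and Agtr2, an angiotensin receptor gene, 61.4 and 34.4 CPM labelled MLT and 93.3 and 28.2 CPM labelled DEHP_MLT. Mgp, a matrix protein that inhibits calcification, was 2804 and 1722 CPM labelled MLT and 2926 and 1818 CPM labelled DEHP_MLT. The protease gene Htra3 was higher, with 0.69 and 0.73, while its relative Htra1 was lower, with -0.67 and -0.76.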
